A study of Mus musculus with 8 samples.

Results

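The 10 genes described here encode enzymes that make purine and pyrimidine nucleotides from small precursors: Ppat, Gart, Pfas, Paics, Atic, Impdh1 and Impdh2 for purines, and Cad, Dhodh and Umps for pyrimidines. They were taken by name, each through the array probe of one of its RefSeq transcripts with the highest mean signal, and are 10 of the 15138 genes tested. Messenger RNA of mouse splenic T cells was measured with Agilent one-colour arrays, each array holding 1 sample. There are 4 groups with 2 arrays in each: Lsp1-deficient (KO) cells stimulated through CD3 and CD28 with antibodies for 6 h, KO cells in medium, wild-type (WT) cells after the same 6 h of stimulation, and WT cells in medium. KO mice carry a germline deficiency of Lsp1, which encodes a leukocyte F-actin-binding protein, on a C57BL/6 background after 10 generations of backcrossing, and WT mice were C57BL/6 mice matched for age and sex, with an age of 8 to 12 weeks given for all mice. Neither the part of Lsp1 that was deleted nor the way the T cells were isolated is given in the sources used here. Nothing in the labels states whether a group's arrays stand for different mice or cultures, so the p-values below measure the spread between these arrays, which may be technical.

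De novo purine synthesis builds the purine ring step by step on a ribose phosphate, from glutamine, glycine, aspartate, carbon dioxide and one-carbon units carried by folate. De novo pyrimidine synthesis makes the ring first, from glutamine, bicarbonate and aspartate, and then attaches it to a ribose phosphate to give uridine monophosphate. Resting lymphocytes meet most of their needs by salvage of preformed bases and nucleosides, and activated lymphocytes depend on de novo synthesis, which is why inhibitors of inosine monophosphate dehydrogenase and of dihydroorotate dehydrogenase are used to suppress immune responses. The transcription factor Myc is known to bind and activate many genes of both pathways in proliferating cells.

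Values below are log2 of an array's processed signal minus the 75th percentile of signal on that array, so that 1 unit is a 2-fold difference and 0 is the 75th percentile. A level of one probe is not set against that of another. Changes are log2 fold changes with the standard error of the fit, 2 arrays per group, and a gene is called changed at an adjusted p below 0.05 (limma, two-sided, Benjamini-Hochberg over all genes). The fit shares 1 spread per gene among the 4 groups, so KO and WT changes of a gene have the same standard error. Over all genes the root mean square SD was larger in KO cells (0.45 stimulated, 0.43 in medium) than in WT cells (0.25 in each). Counts of calls in KO and WT cells are therefore not set against each other. All 10 enzymes passed the filter on dim probes, and all 13 probes that match them were well above background on all 8 arrays.

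The targeted gene and the cell type were checked first. Lsp1 lay between 3.48 and 3.69 on the 4 KO arrays, against 6.99 to 7.48 on the 4 WT arrays, a difference of -3.79 ± 0.13 in medium (adjusted p = 0.00127) and -3.35 ± 0.13 after stimulation (adjusted p = 0.00268). Of 16 T cell markers, 16 were well above background on every array. The second KO array in medium and the second KO array after stimulation stood apart from the rest: the median of 13 measured neutrophil markers lay 4.19 and 3.07 above the mean of the WT arrays in medium, that of 14 erythroid and platelet markers 1.76 and 2.26 above it, and that of 22 cell cycle genes 1.07 and 1.0002 above it. On the other 6 arrays these medians lay between -1.45 and 0.29 for neutrophil markers, between -0.58 and 0.56 for erythroid and platelet markers, and between -0.11 and 0.06 for cell cycle genes. Of the 13 neutrophil markers, 9 to 13 were well above background on each array. In bulk samples such as these, a change in the number of cells of a type and a change in RNA per cell cannot be told apart. On the 1 slide used, treatments are in separate rows and genotypes in separate columns, so position on the slide and group cannot be told apart.

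Stimulation for 6 h raised the messenger RNA of 5 of the 10 enzymes in KO cells and of 3 in WT cells, all of them also above medium in the other genotype, and none was called lower. In KO cells, Gart, Pfas, Ppat, Atic and Umps rose, 5 of 10, between 1.63-fold and 2.29-fold, where 5.85% of all genes tested were called higher, 2.27% lower and 8.13% in either direction. In WT cells, Gart, Ppat and Atic rose, 3 of 10, between 1.88-fold and 2.14-fold, where 6.42% of all genes were called higher, 3.84% lower and 10.3% in either direction. All 10 fold changes were above 0 in both genotypes. Both stimulated arrays lay above both medium arrays for 9 of 10 enzymes in KO cells, all but Paics, where 22.8% of all genes showed this and 28.6% the opposite. They did so for 9 of 10 in WT cells, all but Impdh1, where 27.4% of all genes showed this and 42.1% the opposite. The median of the 10 was 0.59 in KO cells and 0.53 in WT cells, against medians over all genes of -0.08 and -0.09.

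A further contrast, chosen after the data were seen, averaged the responses of both genotypes and so drew on 4 stimulated and 4 medium arrays. By this measure 7 of 10 enzymes rose, namely Gart (1.14 ± 0.09), Ppat (0.96 ± 0.09), Pfas (0.92 ± 0.16), Atic (0.86 ± 0.10), Umps (0.66 ± 0.10), Impdh2 (0.47 ± 0.10) and Cad (0.40 ± 0.11), where 12.2% of all genes were called higher, 12.3% lower and 24.5% in either direction. Dhodh had a change of 0.35 ± 0.10 with an adjusted p of 0.0537, just beyond the threshold, while Impdh1 (0.18 ± 0.11) and Paics (0.10 ± 0.10) had the smallest changes. In 8 of 10 enzymes every stimulated array lay above every medium array, and the exceptions were Paics and Impdh1. Over all genes tested, 15.6% showed such a separation.

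**Figure D1:**
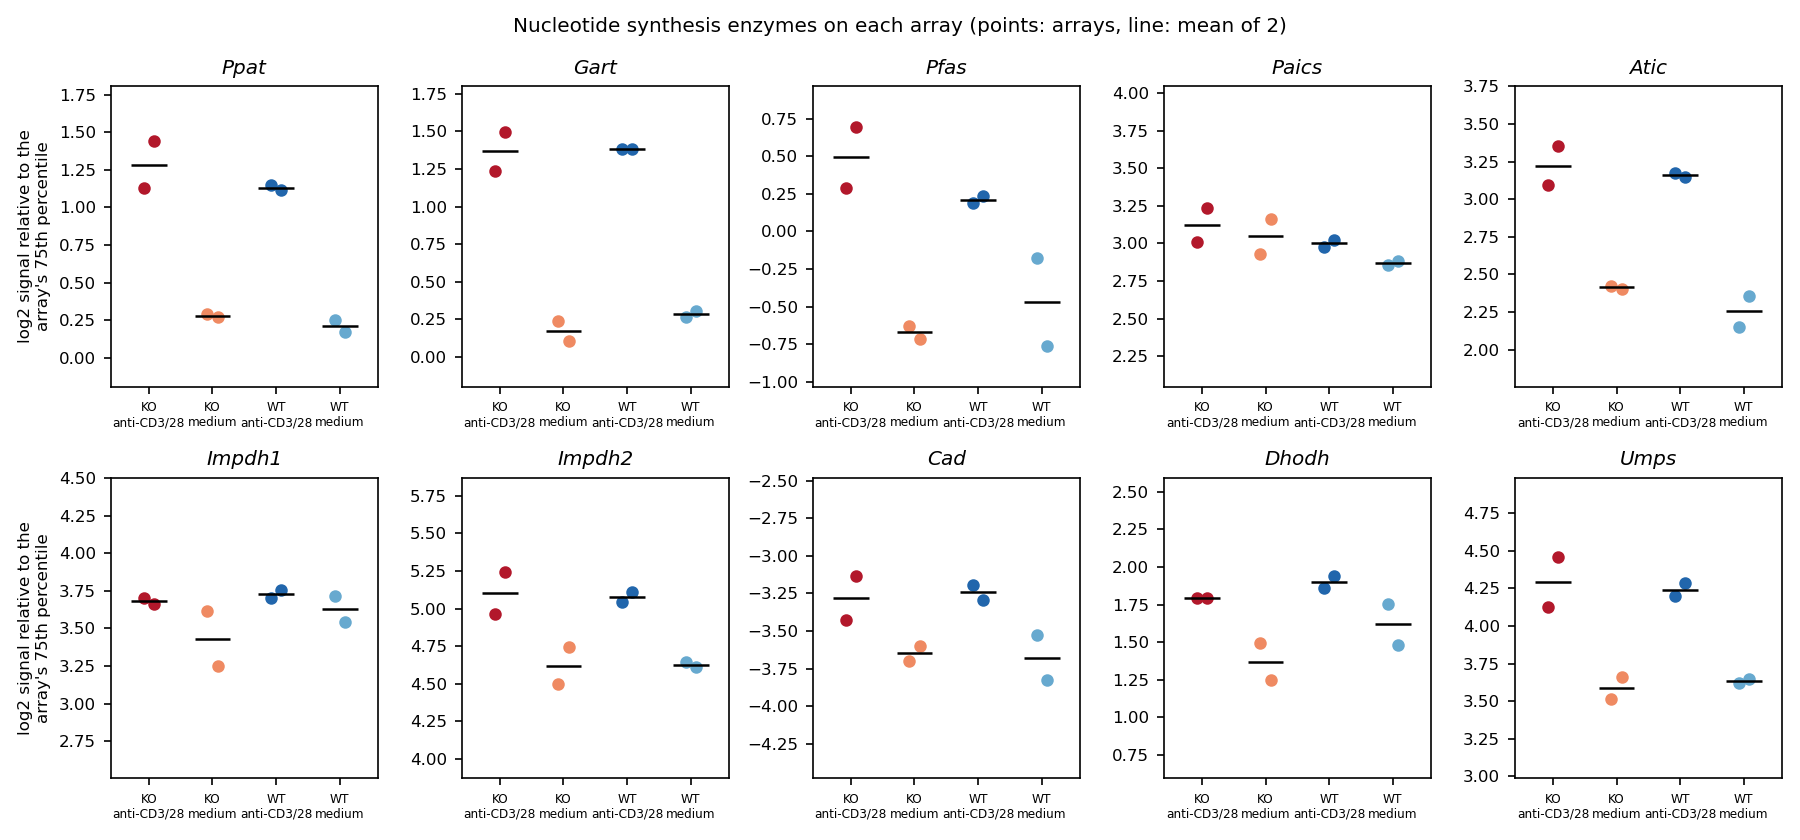
Each panel plots 1 enzyme on the 8 arrays: the horizontal axis gives the group, the vertical axis the log2 signal relative to the array's 75th percentile over a span of 2 units in every panel, points are single arrays and the line is the mean of 2. Stimulated arrays lie above medium arrays in both genotypes for Ppat, Gart, Pfas and Atic, and overlap with them for Paics in KO cells and Impdh1 in WT cells.

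The counts of calls depended on the shared spread and on single arrays. With limma on the groups of 1 genotype alone, 0 enzymes were called in KO cells and 5 in WT cells. For stimulation in KO cells, 2 enzymes were called without the second stimulated KO array (Gart and Ppat), 1 without the first KO medium array and 1 without the second (Gart in each), and 2 without either stimulated WT array (Gart and Ppat). Without both second KO arrays, those with the high neutrophil, erythroid and cell cycle markers, 1 enzyme was called for stimulation in KO cells (Gart), 5 in WT cells and 5 in the mean of both genotypes. For stimulation in WT cells, 0 enzymes were called by limma without the first or the second stimulated WT array or without the first WT medium array, although 4, 4 and 7 enzymes had an unadjusted p below 0.05, where 16.7%, 18.8% and 18% of all genes did, and 2 were called without the second WT medium array (Atic and Gart). Leaving out 1 array at a time gave Gart a change between 1.06 and 1.32 in KO cells and between 1.08 and 1.11 in WT cells. Several uncalled changes moved by over 1.5 times. Pfas in WT cells was 0.39 without the second WT medium array against 0.68 with all arrays. Impdh1 in KO cells was 0.07 without the second KO medium array and 0.43 without the first, against 0.25. Cad was 0.23 in KO cells without the second stimulated KO array, against 0.37. Without the second WT medium array, WT changes were 0.29 for Cad against 0.43, 0.15 for Dhodh against 0.28, and 0.02 for Impdh1 against 0.10. Paics in KO cells was -0.04 without the first KO medium array, against 0.08. In the mean of both genotypes, Atic, Gart, Pfas, Ppat and Umps were called whichever single array was left out. Pfas was not called there without both second KO arrays.

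Ppat encodes the amidotransferase that catalyses the committed first step of purine synthesis. It lay at 1.13 and 1.44 in stimulated KO cells, against 0.29 and 0.27 in KO cells in medium. Stimulated WT cells had 1.15 and 1.11, against 0.25 and 0.17 in WT cells in medium. All 4 stimulated arrays were thus above all 4 medium arrays, and the changes were 1.003 ± 0.13 in KO cells (adjusted p = 0.0109) and 0.92 ± 0.13 in WT cells (adjusted p = 0.0146). A second Ppat probe, tested among all probes, changed by 1.03 ± 0.16 in KO cells and 1.03 ± 0.16 in WT cells.

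Paics encodes a bifunctional enzyme of the middle of the purine pathway and is the immediate genomic neighbour of Ppat, transcribed in the opposite direction. It lay at 3.01 and 3.24 in stimulated KO cells, against 2.93 and 3.17 in KO cells in medium, and the groups overlap. The stimulated WT arrays read 2.98 and 3.03, against 2.85 and 2.88 in WT cells in medium, with no overlap but a distance of the means of only 0.13. Neither change passed the test, at 0.08 ± 0.14 in KO cells (adjusted p = 0.766) and 0.13 ± 0.14 in WT cells (adjusted p = 0.556). In the mean of both genotypes the 95% interval of Paics ran from -0.13 to 0.34, and that of Ppat from 0.73 to 1.19, so the intervals of these neighbours do not overlap. Their difference itself was not tested, and the pair was singled out after its values were seen. Paics was read by 1 probe, so its small change could not be checked with another.

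The start regions of Ppat and Paics are shown because these divergent neighbours had changes far apart in size, and those of Gart and Atic because they changed in both genotypes. Each is the RefSeq window from 250 bases before to 50 bases after the annotated transcript start, in the build GRCm38.p6, written 5′ to 3′ on the strand of the gene in lower case. Capitals mark the E-box, the letters CACGTG, which read the same on both strands and are the core motif that Myc and its partner Max bind.
Ppat, chr5:76951529-76951828, minus strand: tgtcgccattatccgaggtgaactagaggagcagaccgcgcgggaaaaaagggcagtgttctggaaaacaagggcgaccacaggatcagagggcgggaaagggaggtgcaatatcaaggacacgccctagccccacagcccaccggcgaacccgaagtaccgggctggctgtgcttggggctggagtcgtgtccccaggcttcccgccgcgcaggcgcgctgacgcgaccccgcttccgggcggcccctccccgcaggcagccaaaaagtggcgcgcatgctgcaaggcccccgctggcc
Paics, chr5:76951052-76951351, plus strand: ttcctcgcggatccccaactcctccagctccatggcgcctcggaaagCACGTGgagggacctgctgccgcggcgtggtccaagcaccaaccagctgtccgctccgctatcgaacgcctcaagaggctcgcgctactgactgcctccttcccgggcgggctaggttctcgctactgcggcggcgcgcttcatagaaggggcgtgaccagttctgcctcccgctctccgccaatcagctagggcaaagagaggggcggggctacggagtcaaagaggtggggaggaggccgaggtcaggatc
Gart, chr16:91646923-91647222, minus strand: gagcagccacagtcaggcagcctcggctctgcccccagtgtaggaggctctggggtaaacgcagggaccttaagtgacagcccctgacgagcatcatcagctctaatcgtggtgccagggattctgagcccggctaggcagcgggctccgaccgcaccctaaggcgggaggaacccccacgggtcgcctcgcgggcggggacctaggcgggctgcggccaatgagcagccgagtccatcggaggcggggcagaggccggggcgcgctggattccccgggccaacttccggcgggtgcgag
Atic, chr1:71556906-71557205, plus strand: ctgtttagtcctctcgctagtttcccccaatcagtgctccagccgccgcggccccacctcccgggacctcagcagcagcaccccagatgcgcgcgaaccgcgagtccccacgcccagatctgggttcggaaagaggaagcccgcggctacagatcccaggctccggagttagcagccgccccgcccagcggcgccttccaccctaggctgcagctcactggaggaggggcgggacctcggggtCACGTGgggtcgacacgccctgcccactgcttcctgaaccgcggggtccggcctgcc
The annotated starts of Ppat and Paics lie 276 bases apart on chromosome 5, each start lying within the transcribed stretch of the other annotation, so that their 5′ ends overlap by 277 bases.

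RefSeq windows were found for 8 of the 10 enzymes, 9 windows in all since Impdh1 has 2, and not for Pfas and Dhodh. The E-box stood in 3 of the 9 windows, once each in Paics (first base at position -203 from the start), Atic (-7) and Impdh2 (-110), and in 7.15% of 32851 windows of all genes. Among these 3 genes, Atic was called in both genotypes, Impdh2 in the mean of both genotypes and Paics in none of these contrasts. Ppat and Gart, with large changes, have no such letters in their windows. Each of those windows holds 1 copy of CCGGAAG, a sequence bound by ETS factors, on 1 of the strands, as do 8.86% of all windows. The letters CCAAT, bound by the factor NF-Y, stood on either strand in 4 of 9 windows (Gart, Paics, Atic and Impdh2) and in 37.4% of all windows. The letters TATAAA stood in 2 of 9 (Impdh2 and Umps) against 13.6%, and the palindrome bound by NRF1 in 0 of 9 against 0.971%. The 9 windows hold between 53% and 71.3% G and C, against a median of 52.7% over all windows. The shares of all windows were not matched for this, so they are no like-for-like background. These matches describe the letters of the windows only.

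Gart encodes a trifunctional enzyme that carries out several steps of the purine ring assembly. It lay at 1.24 and 1.496 in stimulated KO cells, against 0.24 and 0.11 in KO cells in medium. In stimulated WT cells both arrays read 1.38, against 0.27 and 0.30 in WT cells in medium. The stimulated and medium arrays lay far apart in both genotypes compared with the gaps between arrays of a group, and Gart had the largest change of the 10 enzymes, 1.19 ± 0.13 in KO cells (adjusted p = 0.00601) and 1.09 ± 0.13 in WT cells (adjusted p = 0.00798).

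Pfas encodes the amidotransferase that adds a nitrogen from glutamine in the middle of the purine pathway. It lay at 0.29 and 0.69 in stimulated KO cells, against -0.63 and -0.71 in KO cells in medium. In stimulated WT cells the values were 0.19 and 0.23, against -0.18 and -0.76 in WT cells in medium, whose arrays differed by 0.58. The groups did not overlap in either genotype, and Pfas was called in KO cells (1.16 ± 0.23, adjusted p = 0.0333) and not in WT cells (0.68 ± 0.23, adjusted p = 0.112). The test of the difference between both responses gave 0.48 ± 0.32 with an adjusted p of 0.9999 (limma), so a different response of the genotypes was not shown.

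Atic encodes the bifunctional enzyme of the last steps to inosine monophosphate, the branch point of purine synthesis. It lay at 3.09 and 3.35 in stimulated KO cells, against 2.42 and 2.40 in KO cells in medium. Stimulated WT cells had 3.17 and 3.15, against 2.15 and 2.35 in WT cells in medium. The groups were separated in both genotypes, with changes of 0.81 ± 0.14 in KO cells (adjusted p = 0.0214) and 0.91 ± 0.14 in WT cells (adjusted p = 0.0155).

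Impdh1 and Impdh2 encode the isoforms of inosine monophosphate dehydrogenase, which directs the common precursor towards guanine nucleotides. Type 2 is known as the isoform induced in activated lymphocytes. Impdh2 lay at 4.97 and 5.25 in stimulated KO cells, against 4.50 and 4.74 in KO cells in medium. The stimulated WT arrays read 5.05 and 5.11, against 4.64 and 4.61 in WT cells in medium. Its groups did not overlap, yet the changes of 0.49 ± 0.14 in KO cells (adjusted p = 0.103) and 0.45 ± 0.14 in WT cells (adjusted p = 0.104) missed the threshold, and it was called in the mean of both genotypes (0.47 ± 0.10, adjusted p = 0.0237). A second Impdh2 probe, tested among all probes, had changes of 0.50 ± 0.15 in KO cells and 0.53 ± 0.15 in WT cells, neither of which passed.

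Impdh1 lay at 3.70 and 3.66 in stimulated KO cells, against 3.61 and 3.25 in KO cells in medium. In stimulated WT cells the values were 3.70 and 3.76, against 3.72 and 3.54 in WT cells in medium. The WT groups overlap, and the medium arrays differed among themselves by 0.37 in KO cells and 0.17 in WT cells. The change was 0.25 ± 0.15 in KO cells (adjusted p = 0.359) and 0.10 ± 0.15 in WT cells (adjusted p = 0.696), and the 95% interval of the mean of both genotypes ran from -0.09 to 0.44.

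Cad encodes the trifunctional protein that begins pyrimidine synthesis and carries its main regulatory site. It lay at -3.42 and -3.13 in stimulated KO cells, against -3.70 and -3.60 in KO cells in medium. Stimulated WT cells had -3.19 and -3.29, against -3.53 and -3.83 in WT cells in medium. Its changes were 0.37 ± 0.16 in KO cells (adjusted p = 0.210) and 0.43 ± 0.16 in WT cells (adjusted p = 0.133), with no overlap of arrays in either. In the mean of both genotypes Cad was called with an adjusted p of 0.0463 (limma), close to the threshold. It was called in 8 of 20 alternative choices of processing or arrays, and not with normexp background correction.

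Dhodh encodes the inner mitochondrial membrane enzyme that oxidises dihydroorotate and is the target of leflunomide's active metabolite. It read 1.79 on both arrays of stimulated KO cells, against 1.497 and 1.25 in KO cells in medium. The stimulated WT arrays read 1.86 and 1.94, against 1.76 and 1.48 in WT cells in medium. The groups did not overlap, but neither the change of 0.42 ± 0.15 in KO cells (adjusted p = 0.141) nor that of 0.28 ± 0.15 in WT cells (adjusted p = 0.249) passed the test.

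Umps encodes the bifunctional enzyme that completes uridine monophosphate. It lay at 4.13 and 4.46 in stimulated KO cells, against 3.52 and 3.66 in KO cells in medium. In stimulated WT cells the values were 4.20 and 4.29, against 3.62 and 3.65 in WT cells in medium. The stimulated arrays were higher throughout, and Umps was called in KO cells (0.70 ± 0.14, adjusted p = 0.0391) and missed the threshold in WT cells (0.61 ± 0.14, adjusted p = 0.0508). The difference between these responses was 0.10 ± 0.20. A second Umps probe, tested among all probes, had changes of 0.63 ± 0.24 in KO cells and 0.70 ± 0.24 in WT cells, neither of which passed.

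**Figure D2:**
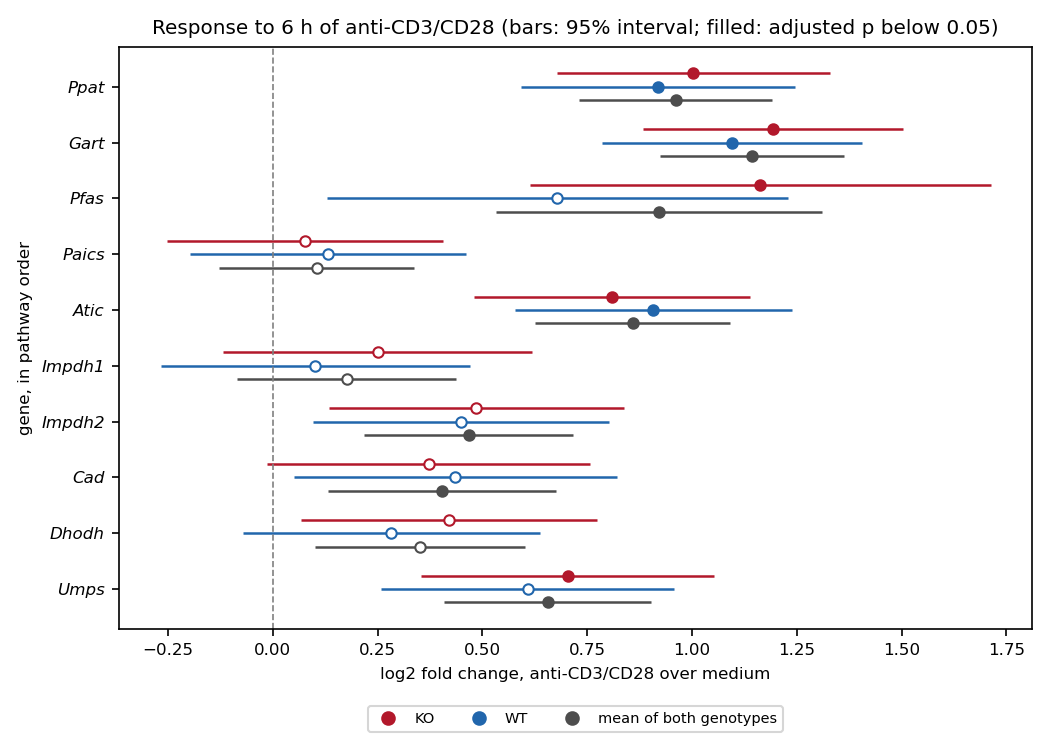
The horizontal axis gives the log2 fold change of stimulated over medium cells and the vertical axis the 10 enzymes in pathway order, with KO, WT and the mean of both genotypes as separate points, bars as 95% intervals, and filled points for an adjusted p below 0.05. Gart, Ppat, Pfas and Atic have the largest mean changes, between 0.86 and 1.14, and the intervals of Paics and Impdh1 include 0 in every contrast shown.

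Ordered by the mean response of both genotypes, the enzymes ran from Gart through Ppat, Pfas, Atic, Umps, Impdh2, Cad, Dhodh and Impdh1 to Paics. The 95% interval of each enzyme overlapped that of its neighbours in this order. The interval of Gart, from 0.92 to 1.36, lay above those of Umps (0.41 to 0.90), Impdh2 (0.22 to 0.72), Cad (0.13 to 0.68), Dhodh (0.10 to 0.60), Impdh1 and Paics. Among the purine enzymes upstream of inosine monophosphate, Paics is the exception, with the other 4 called in the mean of both genotypes.

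No enzyme was called different between KO and WT cells. In medium, KO minus WT differences ran from -0.25 ± 0.15 (Dhodh) to 0.18 ± 0.14 (Paics). By limma 0 enzymes were called, where 0.00661% of all genes were called. The unadjusted p was below 0.05 for 0 enzymes and for 865 of all 15138 genes. After stimulation the differences ran from -0.11 ± 0.15 (Dhodh) to 0.28 ± 0.23 (Pfas), again with 0 called, where 0.0198% of all genes were called. The lowest unadjusted p of the enzymes after stimulation was 0.259 (limma, Pfas). The difference between both responses, KO minus WT, ran from -0.10 ± 0.19 (Atic) to 0.48 ± 0.32 (Pfas), with 0 called, where 0.00661% of all genes were called. Its unadjusted p was below 0.05 for 0 enzymes and for 459 of all 15138 genes. In so small a set, counts of 0 are too close to what all genes showed to be a result about the enzymes. A p that misses the threshold does not show equality: the 95% intervals of the genotype differences reached from -0.75 to 0.51 in medium and from -0.46 to 0.83 after stimulation, with Pfas the least precise.

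Arrays of the genotypes did not overlap for a few enzymes. In medium, KO arrays lay above WT arrays for Atic, Paics and Ppat, 3 of 10, where 12.8% of all genes showed this. They lay below them for Gart, 1 of 10, where 21.3% of all genes did. After stimulation KO arrays lay above WT arrays for Pfas, 1 of 10 (13.2% of all genes), and below them for Dhodh and Impdh1, 2 of 10 (24.8% of all genes).

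**Figure D3:**
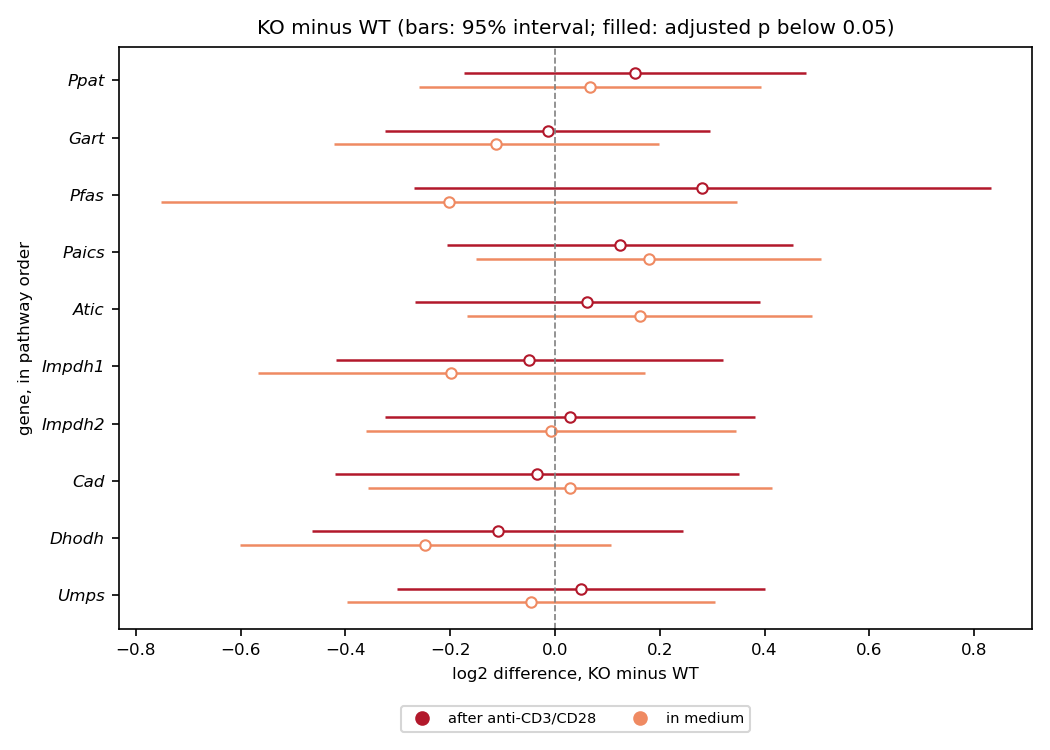
The horizontal axis gives the log2 difference KO minus WT and the vertical axis the 10 enzymes, with points for stimulated cells and for cells in medium, bars as 95% intervals, and open points where the adjusted p was not below 0.05. All 20 intervals include 0, and the widest are those of Pfas.

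The spread between arrays was not the same in all groups. Both stimulated WT arrays were close, with gaps between 0.00 and 0.10 for the 10 enzymes and a median gap of 0.05. Both stimulated KO arrays differed by a median of 0.27 and by up to 0.40 (Pfas), and the second array was the higher for 8 of the 10 enzymes. The second stimulated KO array is one of the arrays with the high neutrophil, erythroid and cell cycle markers, and whether those cells contribute to the enzymes' level there was not tested. On that array the median of the 10 enzymes lay 0.72 above the mean of the WT arrays in medium, against 0.41 on the first stimulated KO array and 0.52 and 0.57 on the stimulated WT arrays. The second KO array in medium, the other array with the high markers, lay at 0.04. The first KO medium array lay at -0.03 and the WT medium arrays at 0.03 and -0.03. The summed level of the 13 neutrophil markers, in multiples of the 75th percentile, ranged from 152 to 442 in stimulated KO cells, from 191 to 770 in KO cells in medium, from 143 to 146 in stimulated WT cells and from 171 to 256 in WT cells in medium. That of the 14 erythroid and platelet markers ranged from 42.9 to 354 in stimulated KO cells, from 37.3 to 298 in KO cells in medium, from 49.98 to 94.0 in stimulated WT cells and from 46.4 to 79.9 in WT cells in medium.

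B cell markers, 12 of 12 well above background on every array, were lower in the KO arrays, with summed levels of 20.5 to 20.7 in stimulated KO cells, 32.1 to 33.9 in KO cells in medium, 33.0 to 39.9 in stimulated WT cells and 42.8 to 46.6 in WT cells in medium, and 0 of 12 were called between the genotypes in either condition. Their part in the enzymes' changes was not tested.

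**Figure D4:**
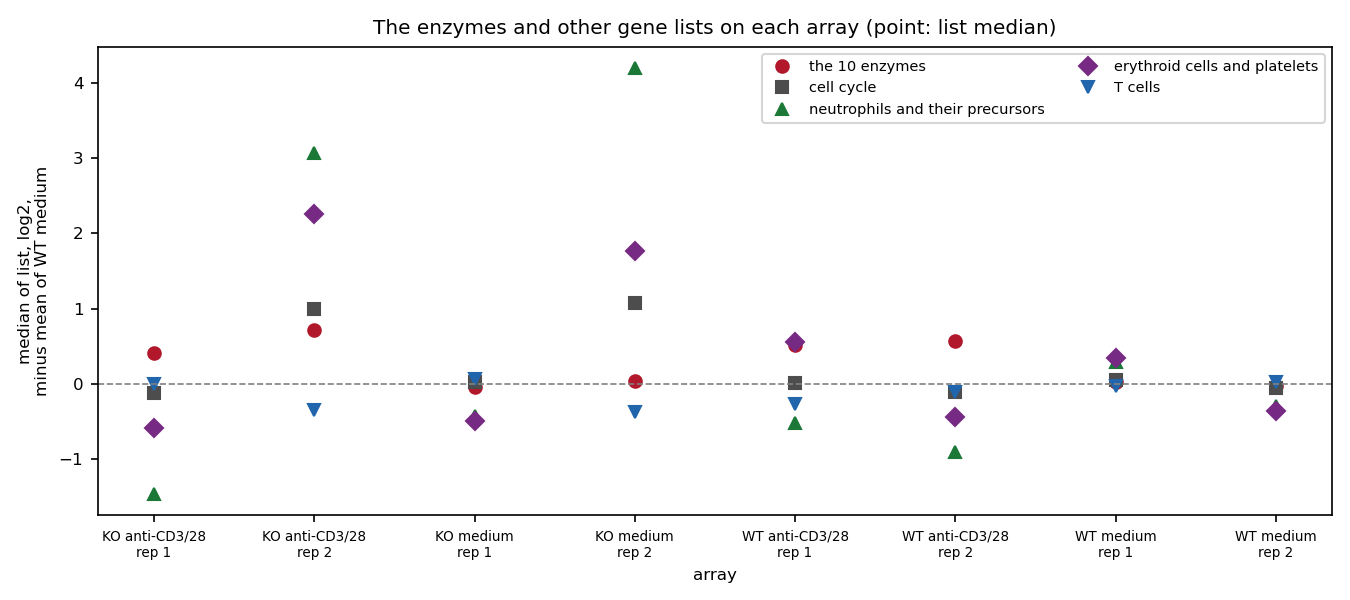
The horizontal axis gives the 8 arrays and the vertical axis the median of a gene list minus the mean of the WT medium arrays on the log2 scale, 1 point for each list and array. The medians of the 10 enzymes lie between 0.41 and 0.72 on the stimulated arrays and between -0.03 and 0.04 on the medium arrays, while the neutrophil medians of 4.19 and 3.07 and the erythroid medians of 1.76 and 2.26 stand out on the second KO arrays.

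Across the 8 arrays the enzymes varied together in part, which describes stimulated against medium arrays as much as any finer pattern, since all share those groups. Each enzyme's correlation with the mean of the other 9 ranged from 0.45 (Paics) and 0.56 (Impdh1) to 0.99 (Ppat), over 8 arrays. Among 45 pairs the median correlation was 0.84, the highest was 0.99 for Umps with Impdh2, and the lowest was -0.35 for Impdh1 with Paics. The genes outside the set whose values were most like the mean of the enzymes, out of 1957 well above background on all arrays with an SD of at least 0.5, were Pop1, Hspd1, Ctps, Timm8a1 and Bcl2a1c, with Pearson correlations between 0.997 (Bcl2a1c) and 0.999 (Pop1) over the 8 arrays. Pop1 encodes a protein subunit of ribonuclease P, Hspd1 a mitochondrial chaperonin, Ctps the enzyme that makes cytidine triphosphate, Timm8a1 a mitochondrial import protein and Bcl2a1c a relative of the apoptosis inhibitor A1. Stimulation changed Pop1 by 1.22 ± 0.17 in KO cells and 1.09 ± 0.17 in WT cells, and Hspd1 by 1.29 ± 0.20 in KO cells and 1.07 ± 0.20 in WT cells.

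The neighbouring steps of nucleotide metabolism were read from 12 lists of genes of the same and adjoining pathways, tested in the same fit. Their counts stand beside the shares of all genes called higher, 5.85% for stimulation in KO cells, 6.42% in WT cells and 12.2% in the mean of both genotypes. Of 6 other genes of purine synthesis, 1 rose in KO cells, 3 in WT cells and 4 in the mean of both genotypes. In each genotype 5 of the 6 changes were above 0. The lowest changes, -1.27 in KO cells and -1.09 in WT cells, were not called. Prps1, which makes the activated ribose phosphate that both pathways consume, lay at 4.78 and 4.88 in stimulated KO cells, against 3.73 and 3.65 in KO cells in medium, a change of 1.14 ± 0.11. In WT cells its change was 1.26 ± 0.11, and it was called in both genotypes. Adsl, which acts between Paics and Atic and again on the way to adenine nucleotides, had a change of 0.79 ± 0.24 in KO cells, which did not pass (adjusted p = 0.103), and rose by 1.098 ± 0.24 in WT cells (adjusted p = 0.0412).

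Of 8 genes downstream of uridine monophosphate, 2 rose in each genotype, Ctps and Nme1. In the mean of both genotypes 4 rose and 1 (Ctps2) fell, where 12.2% of all genes were called higher and 12.3% lower. Ctps lay at 2.89 and 3.603 in stimulated KO cells, against 1.19 and 1.25 in KO cells in medium, and at 2.95 and 2.98 in stimulated WT cells, against 1.60 and 1.26 in WT cells in medium. The changes were 2.02 ± 0.25 in KO cells and 1.53 ± 0.25 in WT cells. Nme1, a nucleoside diphosphate kinase, rose by 1.24 ± 0.17 in KO cells and 1.33 ± 0.17 in WT cells.

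Of 15 genes of purine salvage and interconversion, 1 rose and 1 fell in KO cells, and 2 rose and 1 fell in WT cells, where 5.85% of all genes were called higher and 2.27% lower in KO cells, and 6.42% higher and 3.84% lower in WT cells. These counts are too close to those shares to be a result about the list. The gene that fell in both was Dck, deoxycytidine kinase, by 0.86 ± 0.12 on the log2 scale in KO cells and fell by 0.70 ± 0.12 in WT cells. Hprt, the main salvage enzyme for hypoxanthine and guanine, had changes of 0.20 ± 0.14 in KO cells and 0.11 ± 0.14 in WT cells and was not called. Of 8 measured pyrimidine salvage genes, 2 rose in each genotype, Uck2 (uridine-cytidine kinase, 1.13 ± 0.18 in KO cells and 0.90 ± 0.18 in WT cells) and Tymp (thymidine phosphorylase, 1.03 ± 0.13 in KO cells and 0.90 ± 0.13 in WT cells). Of 12 measured breakdown genes, 2 rose in KO cells and 3 in WT cells. Samhd1, which hydrolyses deoxynucleoside triphosphates, rose by 1.43 ± 0.13 in KO cells and 1.88 ± 0.13 in WT cells.

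One-carbon units enter the purine ring through folate. Of 17 genes of serine, glycine and one-carbon supply, 4 rose in KO cells, 6 in WT cells and 10 in the mean of both genotypes, beside 5.85%, 6.42% and 12.2% of all genes. Shmt1, the cytosolic enzyme that splits serine into glycine and a one-carbon unit, lay at 0.13 and 0.80 in stimulated KO cells, against -3.56 and -3.17 in KO cells in medium, a change of 3.83 ± 0.24. In WT cells its change was 3.41 ± 0.24, and it was called in both genotypes. With the mean of all its probes in place of 1 probe the changes of Shmt1 were 2.31 in KO cells and 2.20 in WT cells. Mthfd1, which makes the formyl folate used by the Gart and Atic reactions, rose by 1.65 ± 0.18 in KO cells and 1.57 ± 0.18 in WT cells. Shmt2 and Mthfd2 of the mitochondrial branch rose by 1.24 ± 0.18 and 1.23 ± 0.15 in KO cells and by 1.21 ± 0.18 and 1.29 ± 0.15 in WT cells. Of 12 genes of glutamine and aspartate supply, 1 rose in KO cells and 2 in WT cells, counts near the 5.85% and 6.42% of all genes called higher. The glutamine transporter gene Slc1a5 rose in both, by 0.78 ± 0.12 in KO cells and 0.69 ± 0.12 in WT cells.

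Among 5 uridine and purine transporters, the equilibrative nucleoside transporter genes Slc29a1 and Slc29a2 rose in both genotypes, with Slc29a2 changing by 2.78 ± 0.18 in KO cells and 2.31 ± 0.18 in WT cells. In the mean of both genotypes 2 of the 5 were called higher and 1 lower, where 12.2% of all genes were called higher and 12.3% lower. Of 8 pentose phosphate genes, 1 (Rpe) was called, and in the mean of both genotypes only (0.30 ± 0.08), a count near the 12.2% of all genes called higher. Rpe was no longer called when any single array was left out. Of 8 genes of deoxynucleotide synthesis, 1 rose in each genotype, namely Dctd, deoxycytidylate deaminase, by 2.04 ± 0.35 in KO cells and 2.11 ± 0.35 in WT cells. With normexp background correction these changes were 1.18 in KO cells and 1.27 in WT cells. Rrm2, the regulated subunit of ribonucleotide reductase, lay at 1.52 and 3.16 in stimulated KO cells, against 1.56 and 2.90 in KO cells in medium, and at 1.57 and 1.41 in stimulated WT cells, against 1.55 and 1.45 in WT cells in medium. Its high arrays are both second KO arrays, those with the high cell cycle genes. Of 22 measured cell cycle genes, 1 rose in each genotype, Ccnd2, which encodes the G1 cyclin D2, by 2.34 ± 0.19 in KO cells and 2.09 ± 0.19 in WT cells, a count below the 5.85% and 6.42% of all genes called higher.

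Of 17 transcriptional regulators of nucleotide synthesis, 1 rose and 2 fell in each genotype. Of all genes, 5.85% were called higher and 2.27% lower in KO cells, and 6.42% higher and 3.84% lower in WT cells. The count that rose is too close to those shares to be a result about the list. Myc lay at 3.93 and 4.62 in stimulated KO cells, against 0.35 and 0.71 in KO cells in medium, and at 4.18 and 4.19 in stimulated WT cells, against 0.25 and 0.54 in WT cells in medium. Its changes were 3.74 ± 0.26 in KO cells and 3.79 ± 0.26 in WT cells. Mxd4, which encodes a partner of Max known to oppose Myc, fell by 1.06 ± 0.19 on the log2 scale in KO cells and by 0.91 ± 0.19 in WT cells. The other gene called lower, Mycl, was not well above background on any stimulated array, and its size is not given because it moved by over 1.5 times with the background correction. The counts for these lists depended on single arrays, as those of the enzymes did. In the mean of both genotypes, 1 of the other purine synthesis genes was called without either stimulated WT array, 2 of the genes downstream of uridine monophosphate were called when any one of 6 arrays was left out (all but the first stimulated KO array and the second KO medium array), and 5 of the one-carbon genes were called without the second stimulated WT array.

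**Figure D5:**
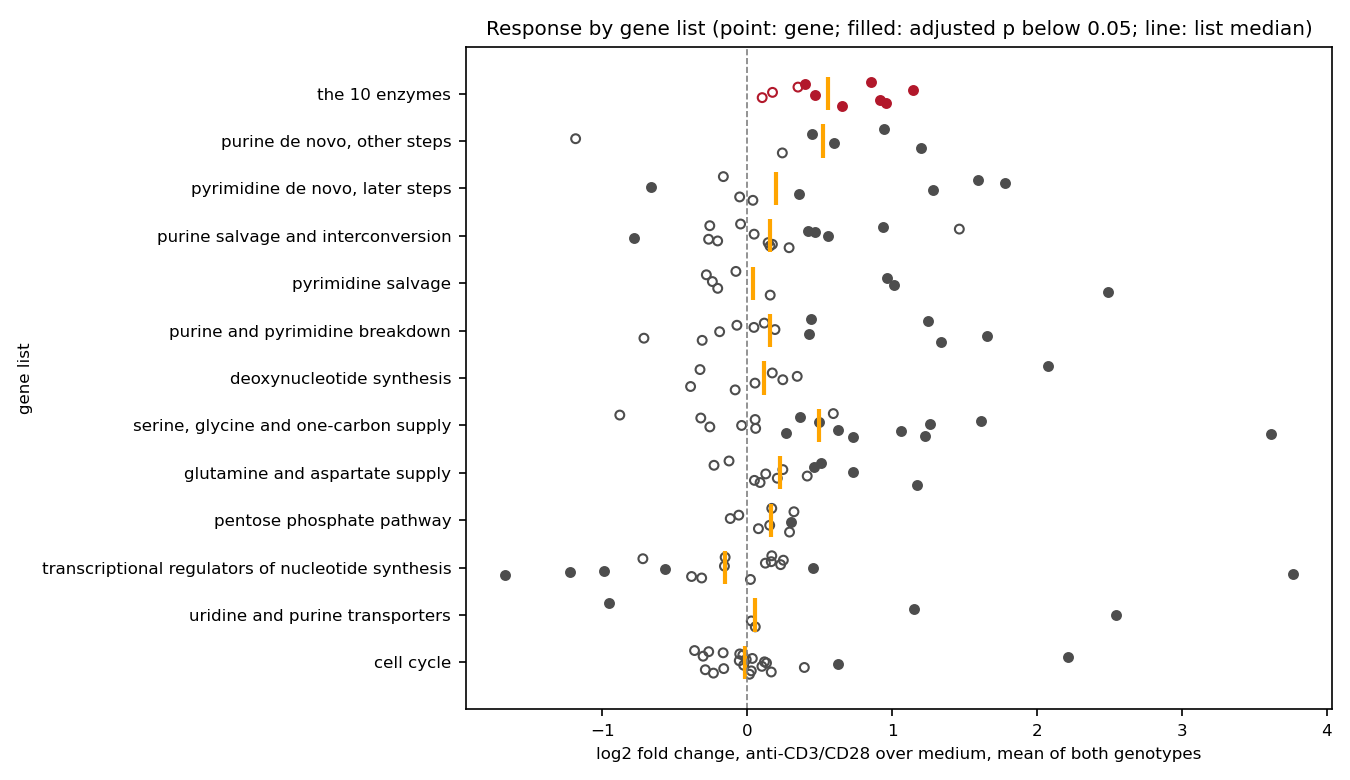
The horizontal axis gives the log2 fold change of stimulated over medium cells in the mean of both genotypes and the vertical axis the gene lists, with 1 point for each gene, filled where the adjusted p was below 0.05, and an orange line at the median of each list. The 10 enzymes have a median of 0.56 and all lie above 0, the other purine synthesis genes have a median of 0.52 and the one-carbon genes one of 0.50, while the cell cycle genes have a median of -0.01.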

How the data were processed

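For every array the authors deposited scanner output, and the processed signal intensities used here had been background-subtracted by Agilent Feature Extraction 10.7.1.1, as the file headers state. The deposited series values hold the median signal intensity of the same arrays on a linear scale, uncentred, with 0 differences from the scanner files. RNA integrity numbers were above 9.5 per the labels.

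From each array's log2 processed intensity, the 75th percentile over its non-control spots was subtracted (percentiles of 1200 to 1469 intensity units), outlier spots were left out and repeated spots averaged. The share of probes well above background ranged from 58.4% to 69.2%, and with 2 arrays per group the number of arrays limits the precision. A probe was kept if, in 1 or more groups, each of the 2 arrays had it well above background (37255 probes). Probes were named through the RefSeq accession (26056 named, 29625 not), and the probe with the highest mean signal stood for each of 15138 genes. One limma 3.58.1 fit (R 4.3.3, statmod 1.5.0, the data.table package at 1.17.8) over the 4 group means, with 4 residual and 2.11 prior degrees of freedom, gave all contrasts, with Benjamini-Hochberg adjustment over all genes. It was tested on simulated data. The exact permutation test of 2 arrays against 2 cannot go below p = 0.333 and was not used.

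All 10 enzymes were named whether called or not. Of the pathway lists any gene could be named, called genes first, and the 5 genes most like the enzymes by correlation. The enzymes and lists were chosen with earlier results of these data known. The mean of both genotypes' responses and a percentile over averaged probes were added after seeing the data. The normexp background correction (offset 50) was planned on the mean signal and run on the median signal, since the files used have no mean signal column. Other alternatives were quantile normalization, the deposited table, other filters, the mean of a gene's probes, other variance models, array weights, fits of the compared groups alone, a replicate block and leaving out arrays. All arrays share 1 slide and 1 scan, so no batch was tested. Promoter windows are RefSeq's in GRCm38.p6, and the headers name another build for the probes, so no probe coordinates are given.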

Additional observations from a re-analysis of the deposited data

How the results depend on the processing

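No called change of an enzyme turned its direction under any alternative run. Paics, never called, had a KO response below 0 under 2 alternatives (lowest -0.04). For stimulation in KO cells, 5 enzymes were called, against 3 without a filter on dim probes, 3 with array weights, 0 with limma on the KO groups alone and 1 without both second KO arrays. For stimulation in WT cells, 3 were called, against 6 with array weights, 5 on the WT groups alone and 5 without both second KO arrays. Leaving out 1 array at a time gave 1 to 5 enzymes in KO cells, 0 to 4 in WT cells, 5 to 7 in the mean of both genotypes and 0 in each genotype comparison.

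Over all genes, 1230 were called for stimulation in KO cells (687 with array weights, 38 on the KO groups alone, 436 without both second KO arrays, 366 to 1482 with 1 array left out). In WT cells 1553 were called (3003 without the filter, 3461 with array weights, 2713 on the WT groups alone and 2713 without both second KO arrays, 199 to 1753 with 1 array left out), and in the mean of both genotypes 3713 (1444 to 3869). Between genotypes, 1 gene was called in medium (0 on the medium groups alone or without both second KO arrays, 1 to 2 with 1 array left out). After stimulation 3 were called (1 with normexp, 1 with the deposited table and 1 with probes above background on all 8 arrays, 0 on the stimulated groups alone or without both second KO arrays, 0 to 13 with 1 array left out). For the difference of responses 1 was called, 3 with quantile normalization, 0 to 1 with 1 array left out, and 0 with normexp, the deposited table, no filter, probes above background on all 8 arrays, an intensity trend, array weights, either replicate block, a percentile over averaged probes, or without both second KO arrays. At an unadjusted p below 0.05, limma gave 865 genes between genotypes in medium and 459 for the difference of responses.

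The labels do not say that replicate numbers pair samples. Deviations of same-numbered arrays correlated at 0.74 between both KO groups, 0.16 between both WT groups and -0.24 to -0.06 across genotypes. The values across genotypes do not bear on a pairing of medium and stimulated arrays within a genotype. Whether such arrays share a preparation is not known. The main fit took no pairing because the labels give none. Both second KO arrays share the high neutrophil, erythroid and cell cycle markers. With the replicate block over all groups, 4 enzymes were called in KO cells, 4 in WT cells and 6 in the mean of both genotypes. With the replicate block within genotype, 6, 5 and 8 were called, and 2776, 3522 and 5938 of all genes. The causes of these differences between settings were not tested. With 2 arrays per group, a change that misses the threshold is not shown to be absent.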
